A study of Mus musculus with 155 samples.

Results

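The SoxB genes Sox1, Sox2, Sox3, Sox14 and Sox21 were followed through mouse embryonic stem cells (ESCs), retinoic acid (RA)-treated cells and oligodendrocyte precursor cells (OPCs) that carried inducible wild type (WT) or mutant histone H3.3. The 5 genes were taken by family membership, and the family was taken up because the RNA level of Sox2 was higher in both mutant lines after RA and that of Sox3 was higher in H3.3K27M OPCs. Those 3 contrasts (H3.3K27M or H3.3K27L against WT after RA, and H3.3K27M against WT in OPCs) are therefore given below as values with no test. Of the 5 genes, 4 were matched to a row among the 55471 genes of the count tables by Ensembl identifier, and Sox1 is not analysed here. Expression was read from 42 RNA libraries of mouse cells.

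SoxB proteins bind DNA through an HMG box. The SoxB1 members SOX1, SOX2 and SOX3 are mainly transcriptional activators that hold neural stem and progenitor cells in an undifferentiated state, and SOX2 also works together with OCT4 (the product of Pou5f1) to maintain pluripotency in ESCs. The SoxB2 members SOX14 and SOX21 are mainly repressors that act against SoxB1 proteins on shared targets, and SOX21 is known for favouring neuronal differentiation of progenitors. SOX2 and SOX3 are also found in oligodendrocyte precursors.

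All cells derived from the KH2 mouse ESC line and carried 1 extra, doxycycline (Dox)-inducible copy of SNAP-HA-tagged H3.3, either WT, K27M (lysine 27 to methionine, which acts dominantly against the H3K27 methyltransferase complex PRC2) or K27L (lysine 27 to leucine, which cannot be modified at that position but lacks the dominant effect). The WT line served as the control and received Dox too, so no library represents cells without tagged H3.3. ESCs were kept in serum with LIF and 2i, and 2 replicates were sequenced at 4, 8, 24 and 72 h of Dox for WT, H3.3K27M, H3.3K27L and WT cells given the PRC2 inhibitor GSK343, which makes 32 libraries. RA-treated cells, labelled as neural progenitors derived from ESCs, received 1 µM RA without LIF or 2i. The study describes 4 days of RA with Dox from 24 h after its start, which gives the 72 h of Dox. Its text gives no separate schedule for the 24 h libraries. RA-treated cells were sequenced once per line at 24 and 72 h of Dox, giving 6 libraries. OPCs differentiated from the WT and H3.3K27M lines were sequenced once each at 24 and 72 h of Dox, giving 4 libraries, and H3.3K27L OPCs are not analysed here. The lines came from selected clones, and the number of clones per line is not given in the sources used here. The mutation therefore cannot be told apart from other differences between clones. Karyotyping showed a possible duplication of chromosome 8 in all the clones, and that chromosome was left out of all main fits. The replicate libraries of ESCs came from experiments weeks apart, and the libraries at 24 and 72 h stood in as the replicates of a line after RA and in OPCs.

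The 42 libraries held 68378 to 22269533 counts, and 2 ESC libraries held fewer than 2000000 (H3.3K27L at 72 h, replicate 2, with 68378, and 1 GSK343 library with 1247934). Levels are given in CPM, that is counts relative to the library total after scaling by the trimmed mean of M values (TMM). The pluripotency markers summed to 2159 to 5286 CPM in ESCs, 90.1 to 336.5 CPM after RA and 24.1 to 119.5 CPM in OPCs, where Pou5f1 had no count in any of the 4 libraries. After RA the neural progenitor label was borne out by only part of its markers: Nes stood at 20.3 to 405 CPM and Pax6 at 11.6 to 40.0 CPM, but Hes5 did not exceed 0.97 CPM and Fabp7 did not exceed 0.63 CPM, and the endoderm markers summed to 678 to 6651 CPM against 40.8 to 156.5 CPM in ESCs. In OPCs Olig2 stood at 303 to 1141 CPM, whereas Pdgfra, a defining receptor of these cells, stood at 0.634 to 25.6 CPM and Sox10 at 0.158 to 3.72 CPM.

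In the mouse build NCBIM37 (mm9), Sox2 (ENSMUSG00000074637.7) lies at chr3:34548927-34551383 on the plus strand, as a single exon within an intron of the long non-coding gene Sox2ot. Sox3 (ENSMUSG00000045179.9) is also a gene of 1 exon, at chrX:58144545-58146605 on the minus strand. Sox14 (ENSMUSG00000053747.9) has 2 exons and lies at chr9:99774644-99776663 on the minus strand. Sox21 (ENSMUSG00000061517.8), of 1 exon, lies at chr14:118632454-118636252 on the minus strand, and its exon overlaps the antisense long non-coding gene Gm4675. Strand use in the counting is not given in the sources used here, so reads in the part shared by both genes (chr14:118635454-118636252) cannot be assigned to 1 of them with certainty. Gm4675 itself stood at 0 to 0.84 CPM in ESCs, 0.0902 to 4.13 CPM after RA and 3.6 to 5.75 CPM in OPCs.

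The 250 bases before the annotated start of the 3 detected members are printed below, 5′ to 3′ on the strand of the gene, because the results below turn on these genes. Capitals mark matches to ACAAAG or ACAATG (letters that SOX proteins are known to bind), to ATGCAAAT (the octamer), to CCAAT or to TATAAA, each searched on both strands. The windows are chr3:34548677-34548926 (plus) for Sox2, chrX:58146606-58146855 (minus) for Sox3 and chr14:118636253-118636502 (minus) for Sox21.
Sox2: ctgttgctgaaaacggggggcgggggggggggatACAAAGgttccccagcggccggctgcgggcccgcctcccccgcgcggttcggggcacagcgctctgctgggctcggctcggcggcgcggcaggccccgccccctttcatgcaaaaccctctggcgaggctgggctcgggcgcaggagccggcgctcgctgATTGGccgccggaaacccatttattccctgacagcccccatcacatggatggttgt
Sox3: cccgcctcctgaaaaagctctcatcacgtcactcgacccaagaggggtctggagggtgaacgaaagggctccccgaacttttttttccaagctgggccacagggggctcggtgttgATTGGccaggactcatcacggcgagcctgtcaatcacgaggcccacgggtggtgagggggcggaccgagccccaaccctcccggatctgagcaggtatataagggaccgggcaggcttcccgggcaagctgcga
Sox21: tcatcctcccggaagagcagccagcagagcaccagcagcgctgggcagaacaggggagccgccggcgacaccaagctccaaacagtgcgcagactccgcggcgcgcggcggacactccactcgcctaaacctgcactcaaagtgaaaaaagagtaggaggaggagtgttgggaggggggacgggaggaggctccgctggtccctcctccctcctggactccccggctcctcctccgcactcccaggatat
The Sox2 window held ACAAAG and an inverted CCAAT box, the Sox3 window held an inverted CCAAT box, and the Sox21 window held none of the letters searched. Of the 22375 windows of the same length before annotated genes, 15.4% held ACAAAG, 9.09% held ACAATG, 1.62% held ATGCAAAT, 35.01% held CCAAT and 12.3% held TATAAA. GC content was 70.8% for Sox2, 62.4% for Sox3 and 65.2% for Sox21, against a median of 54.0% over all windows. CpG dinucleotides numbered 25, 16 and 17, against a median of 8, so all 3 starts were richer in CpG than most.

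SoxB expression differed widely between members. Sox14, which is known from interneurons, was at the limit of detection: its counts summed to 6, in 5 of the 42 libraries, and its level did not exceed 0.137 CPM. A count of 3 corresponded to 0.135 to 2.42 CPM in all libraries but the shallowest, so low expression of Sox14 was not detectable at this depth, and it was not tested. The other members were counted in all 3 cell states. Sox2 stood at 337 to 546 CPM in ESCs, 10.02 to 33.1 CPM after RA and 212 to 309 CPM in OPCs. Sox3 stood at 0 to 9.31 CPM in ESCs, 1.96 to 31.3 CPM after RA and 53.7 to 448 CPM in OPCs. Sox21 stood at 0 to 9.74 CPM in ESCs, 5.01 to 19.998 CPM after RA and 76.6 to 82.6 CPM in OPCs. Sox2 was thus highest in ESCs and lowest after RA, with no overlap between the 3 states, while Sox3 and Sox21 were highest in OPCs and overlapped between ESCs and RA.

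**Figure D1:**
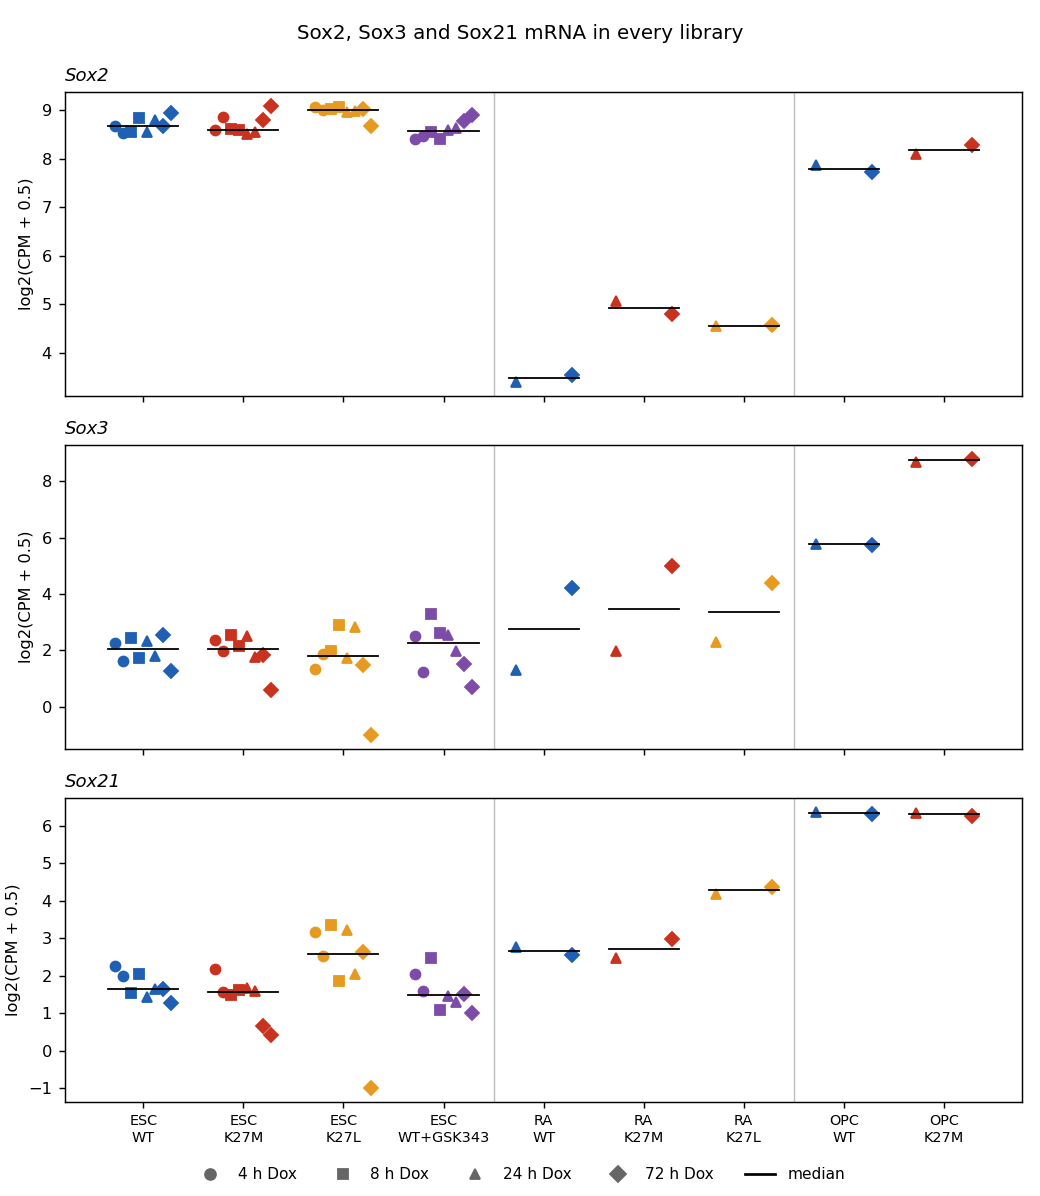
Level of Sox2, Sox3 and Sox21 in each of the 42 RNA libraries (CPM on a log axis), grouped by cell state and line, with 1 point per library. Sox2 sits at 337 to 546 CPM in ESCs, falls to 10.02 to 33.1 CPM after RA and lies at 212 to 309 CPM in OPCs, while Sox3 and Sox21 are highest in OPCs.

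RA treatment against ESCs was compared within each line, with 2 libraries after RA against 8 ESC libraries. The cell states come from separate count tables, and batch and kit are not given per library. Differences between states, here and for OPCs below, thus cannot be told apart from those of batch or kit. Sox2 fell in all 3 lines. The WT level went from 369 to 492 CPM in ESCs (median 405.8) to 10.02 and 11.1 CPM after RA, a log2 fold change of -5.30 (± 0.22 SE, BH-adjusted p = 1.12e-21), and 42.4% of the genes tested were called in that comparison. Calls needed a Benjamini-Hochberg (BH) adjusted p below 0.05 by the quasi-likelihood test of edgeR together with a fold above 2, up or down. In H3.3K27M Sox2 went from 365 to 546 CPM (median 387) to 33.1 and 27.1 CPM, a log2 fold change of -3.79 (± 0.20 SE, BH-adjusted p = 6.01e-19), with 44.1% of genes called. In H3.3K27L it went from 408 to 536 CPM (median 515) to 22.8 and 23.2 CPM, a log2 fold change of -4.46 (± 0.21 SE, BH-adjusted p = 3.03e-20), with 42.1% of genes called. Relative to the ESC mean of the same line, 2.55% of the Sox2 level was left in WT, 7.19% in H3.3K27M and 4.56% in H3.3K27L. Every RA library lay far below every ESC library in each line. The Sox2 levels of these RA libraries entered the choice of the family, so its tests here are not independent of that choice. In bulk samples fewer expressing cells and less RNA per cell cannot be told apart.

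Sox3 and Sox21 did not follow Sox2 after RA. Sox21 went from 0.838 to 4.02 CPM in H3.3K27M ESCs (median 2.47) to 5.01 and 7.43 CPM, a log2 fold change of 1.34 (± 0.38 SE, BH-adjusted p = 0.00287), and the groups did not overlap. Without the H3.3K27M library at 72 h this value was 1.05 and was no longer called. In H3.3K27L Sox21 went from 0 to 9.74 CPM (median 5.46) to 17.8 and 19.998 CPM, which was higher by 1.56 on the log2 scale (± 0.35 SE, BH-adjusted p = 0.000229), again without overlap. Both of these RA libraries but only replicate 1 of the ESC libraries carried the shift of chromosome 14 described below, which this fit does not take off. In WT it went from 1.93 to 4.29 CPM (median 2.61) to 6.28 and 5.34 CPM, and its log2 fold change of 1.01 (± 0.41 SE, BH-adjusted p = 0.0351) sat at the 2-fold limit, so that 2 of 10 fits with 1 library left out kept the call (those without WT ESC replicate 1 at 4 h or replicate 2 at 8 h), over a range of 0.815 to 1.10. Sox3 was not called in WT (log2 fold change 1.31, ± 0.66 SE, BH-adjusted p = 0.0921) and was called in H3.3K27M (2.09, ± 0.58 SE, BH-adjusted p = 0.00221) and in H3.3K27L (1.57, ± 0.61 SE, BH-adjusted p = 0.0281). These Sox3 values rested on the library at 72 h: without it they were -0.91 in WT, -0.16 in H3.3K27M and 0.0953 in H3.3K27L. Without the 24 h library the WT value was 2.25 and was called. The H3.3K27L call was also lost without replicate 1 of the ESC libraries at 4, 24 or 72 h or replicate 2 at 4 h, with values of 1.39 to 1.45.

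Sox3 was higher at 72 h than at 24 h of Dox after RA. At 24 h of Dox it stood at 1.96 CPM in WT, 3.43 CPM in H3.3K27M and 4.41 CPM in H3.3K27L, and at 72 h it stood at 18.3, 31.3 and 20.6 CPM. The 72 h libraries all lay above the 24 h libraries, with ratios of 9.30 in WT, 9.14 in H3.3K27M and 4.68 in H3.3K27L. Over the 3 lines the log2 fold change was 3.07 (± 0.27 SE, BH-adjusted p = 1.03e-06), and 42.1% of genes were called between the times. Sox2 changed by 0.14 (± 0.19 SE, BH-adjusted p = 0.522) and Sox21 by 0.42 (± 0.26 SE, BH-adjusted p = 0.155), neither of which passed the test. Whether the 2 Dox times differed in days in RA or in batch is not given in the text of the study. Dox time cannot be told apart from either.

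The lines after RA are described without a test for the contrasts with WT. Sox2 stood at 10.02 and 11.1 CPM in WT (24 and 72 h of Dox), at 33.1 and 27.1 CPM in H3.3K27M and at 22.8 and 23.2 CPM in H3.3K27L. Both mutant lines lay above both WT libraries, at 3.3 and 2.44 times WT of the same time in H3.3K27M and 2.28 and 2.08 times in H3.3K27L. The fitted log2 fold changes were 1.45 and 1.10. Sox21 stood at 17.8 and 19.998 CPM in H3.3K27L against 6.28 and 5.34 CPM in WT and 5.01 and 7.43 CPM in H3.3K27M, so H3.3K27L lay above the other lines and those overlapped. For Sox3 the ratio to WT was 1.75 and 1.72 in H3.3K27M and 2.24 and 1.13 in H3.3K27L, and the ranges of the 3 lines overlapped. Gm4675, which overlaps Sox21, stood at 1.74 and 4.13 CPM in the H3.3K27L libraries. Marker sums varied between the lines too. The endoderm markers summed to 781 to 3388 CPM in WT, 678 to 993 CPM in H3.3K27M and 2093 to 6651 CPM in H3.3K27L, where WT and each mutant overlapped. The pluripotency markers summed to 90.8 to 143.6 CPM in WT, 90.1 to 94.2 CPM in H3.3K27M and 253 to 336.5 CPM in H3.3K27L, and the neural progenitor genes to 1070.1 to 1358 CPM, 894 to 2589 CPM and 408 to 975 CPM. H3.3K27L did not overlap WT in either of these lists, and the part of the markers in the SoxB differences was not tested.

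**Figure D2:**
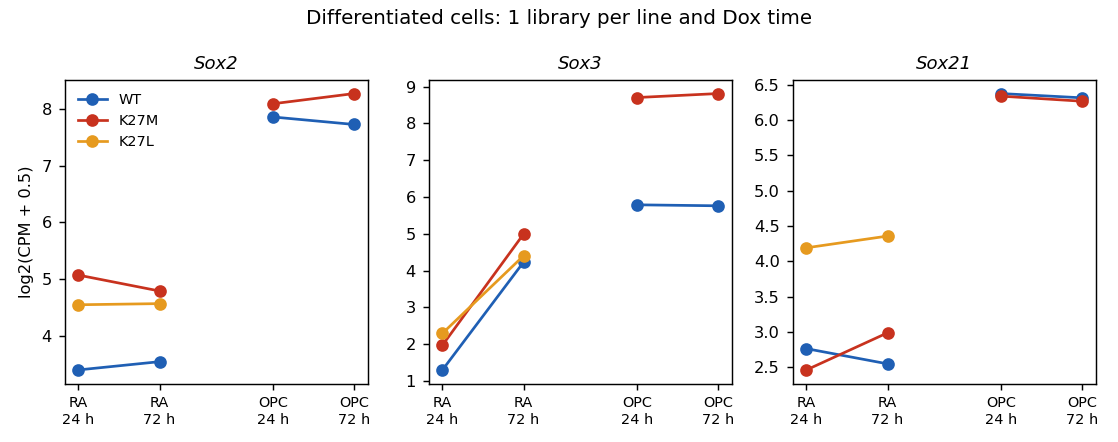
Level of Sox2, Sox3 and Sox21 in each RA and OPC library (CPM, log axis) at 24 and 72 h of Dox, with 1 point per library, coloured by line. Sox2 lies at 10.02 and 11.1 CPM in WT after RA and at 22.8 to 33.1 CPM in the mutant lines, Sox3 lies higher at 72 h than at 24 h after RA, and Sox3 in H3.3K27M OPCs lies at 416 and 448 CPM.

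No gene was called between the lines after RA when the 2 Dox times were pooled (0% in each of the 3 contrasts by edgeR, with 14, 185 and 287 genes at an unadjusted p under 0.05 in H3.3K27M against WT, H3.3K27L against WT and H3.3K27M against H3.3K27L, and 0, 5 and 18 by DESeq2). With Dox time as a block, the share called between H3.3K27M and H3.3K27L was 6.72%. The contrast of the mutants was not used to choose the family. Sox2 did not pass its test there (log2 fold change 0.36, SE 0.37), and neither did Sox3 (0.47, SE 1.60). Sox21 was lower in H3.3K27M than in H3.3K27L by a log2 fold change of -1.62 (± 0.49 SE, BH-adjusted p = 0.9999). With the block the value was -1.71 (adjusted p = 0.0023), where it was called. Both H3.3K27L libraries carried the shift of chromosome 14 described below, which these fits do not take off. With that shift as an offset and no block, the value was -1.06.

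OPCs were compared with ESCs in WT and in H3.3K27M. The WT level of Sox2 was 232 and 212 CPM against an ESC median of 405.8 CPM, which is 53.5% of the ESC mean, and all OPC libraries lay below all ESC libraries. Its log2 fold change was -0.90 (± 0.16 SE, BH-adjusted p = 4.47e-06), below the 2-fold limit, in a comparison with 66.6% of genes called. Fits that kept chromosome 8 or held only the libraries compared moved the value past that limit, to -1.01, as did leaving out any 1 of the WT ESC libraries at 4, 8 or 24 h, with values down to -1.06. In H3.3K27M Sox2 was 273 and 309 CPM, or 69.5% of the ESC mean, with a log2 fold change of -0.53 (± 0.16 SE, BH-adjusted p = 0.00291), and 64.3% of genes were called. This value was -0.25 both by DESeq2 (adjusted p = 0.0473) and with relative log expression scaling (adjusted p = 0.107), so it did not pass the test under the latter.

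The other members rose steeply in OPCs. Sox21 stood at 82.6 and 79.2 CPM in WT OPCs against 1.93 to 4.29 CPM in WT ESCs, a log2 fold change of 4.79 (± 0.31 SE, BH-adjusted p = 6.02e-17). It stood at 80.5 and 76.6 CPM in H3.3K27M OPCs, higher than in ESCs of that line by 5.05 (± 0.32 SE, BH-adjusted p = 3.06e-17). The ranges of the 2 lines overlapped. Sox3 stood at 54.7 and 53.7 CPM in WT OPCs against 1.93 to 5.34 CPM in WT ESCs, a log2 fold change of 3.88 (± 0.49 SE, BH-adjusted p = 7.08e-09). In H3.3K27M it stood at 416 and 448 CPM against 1.01 to 5.30 CPM, a log2 fold change of 6.85 (± 0.51 SE, BH-adjusted p = 6.02e-15). The Sox3 levels of both OPC lines entered the choice of the family. These Sox3 tests, and those of Sox2 and Sox3 against RA-treated cells below, are thus not independent of that choice. Against RA-treated cells, as the mean of WT and H3.3K27M, all 3 members were higher in OPCs, Sox2 by 3.83 (± 0.16 SE, BH-adjusted p = 3.43e-22), Sox3 by 3.66 (± 0.57 SE, BH-adjusted p = 9.29e-07) and Sox21 by 3.74 (± 0.36 SE, BH-adjusted p = 2.25e-11) on the log2 scale, with 46.9% of genes called.

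Between the OPC lines, a contrast again given without a test, Sox3 was 7.60 times WT at 24 h and 8.35 times WT at 72 h in H3.3K27M, a fitted log2 fold change of 2.99. Sox2 was 1.18 and 1.46 times WT (log2 fold change 0.39), and Sox21 was 0.975 and 0.967 times WT (-0.05). The H3.3K27M libraries lay above the WT libraries for Sox3 and Sox2. In this comparison 27.9% of genes were called. Several marker lists moved with the line: the 8 fibroblast markers summed to 664 to 712 CPM in WT and 27.004 to 32.01 CPM in H3.3K27M, and the 7 endoderm markers to 163.5 to 209.7 CPM and 26.0 to 30.1 CPM. Of these, 7 of 8 fibroblast markers and all 6 tested endoderm markers were called lower, and Thy1 was called higher. The 8 oligodendrocyte markers summed to 572 to 610 CPM in WT and 1927 to 2151 CPM in H3.3K27M, with Olig1 and Olig2 among those called higher and Pdgfra and Sox10 called lower. The 5 astrocyte markers summed to 920.5 to 933 CPM in WT and 1003 to 1372 CPM in H3.3K27M, a sum made up mostly of Slc1a3 (828 to 1322 CPM), while Gfap, Aqp4 and Aldh1l1 were called lower, none was called higher and the median log2 fold change of the list was -1.79. The neural progenitor genes summed to 8219 to 8227 CPM in WT and 4777 to 6389 CPM in H3.3K27M. Sums were also lower in H3.3K27M for neuron markers (207.4 to 207.9 CPM, against 273 to 281 CPM in WT). The same held for pluripotency markers (24.1 to 25.1 CPM, against 108 to 120 CPM in WT). The part of these markers in the Sox3 difference was not tested.

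The share of each member was taken from CPM per kb of exon, out of the total of Sox2, Sox3 and Sox21. Sox1, which was not matched, and Sox14 are not part of this total. The share depends on the kit, since a 3′ kit does not give more reads to longer genes. In ESCs Sox2 made up 96.3 to 100% of the total. After RA in WT its share went from 61.0% at 24 h to 30.6% at 72 h, while that of Sox3 went from 14.3% to 59.9%. In H3.3K27M the Sox2 share went from 81.9% to 39.2% and the Sox3 share from 10.1% to 53.9%. The Sox21 share in H3.3K27L was 29.0% at 24 h and 21.3% at 72 h, and that in WT was 24.8% and 9.51%, so the ranges overlapped. In WT OPCs the shares were 64.7 to 66.2% for Sox2, 18.6 to 19.6% for Sox3 and 15.2 to 15.7% for Sox21. In H3.3K27M OPCs Sox3 was the leading one of these genes with 59.9 to 60.4%, and Sox2 held 33.2 to 34.6%. The summed level was 141 to 223 CPM per kb in ESCs, 6.68 to 28.2 after RA, 133 and 143 in WT OPCs and 334 and 364 in H3.3K27M OPCs.

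**Figure D3:**
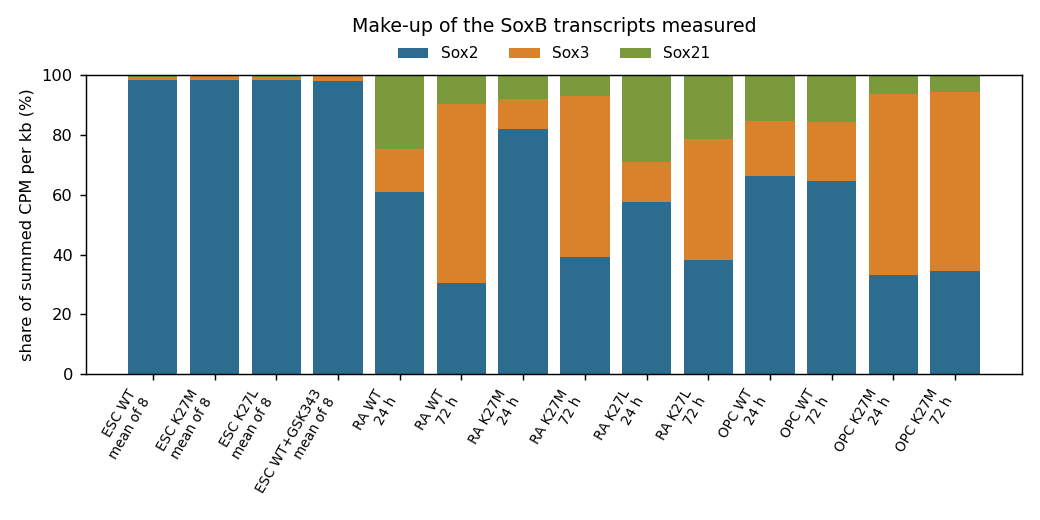
Share of Sox2, Sox3 and Sox21 in their summed level (percent of CPM per kb of exon) for ESC groups and for each RA and OPC library, as stacked bars. Sox1 and Sox14 are not part of the sum. Sox2 fills nearly the whole bar in ESCs, Sox3 grows between 24 and 72 h after RA, and Sox3 makes up 59.9 to 60.4% in H3.3K27M OPCs.

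In ESCs no member passed the test between H3.3K27M and WT. Sox2 stood at 365 to 546 CPM (median 387) in H3.3K27M and 369 to 492 CPM (median 405.8) in WT, a log2 fold change of 0.01 (± 0.08 SE, BH-adjusted p = 0.967). Sox3 differed by -0.05 (± 0.29 SE, BH-adjusted p = 0.962) and Sox21 by -0.41 (± 0.27 SE, BH-adjusted p = 0.567), and the ranges of both genes overlapped. Of all genes tested, 0.0143% were called. At 24 and 72 h alone, Sox3 differed by -0.36 and Sox21 by -0.56, and no gene was called (0% by edgeR, with 593 genes at an unadjusted p under 0.05 and 0 by DESeq2). Sox3 and Sox21 had low counts, and their SEs were over 3 times that of Sox2.

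GSK343 did not move the members past the test either. Sox2 stood at 337 to 473 CPM (median 377.5), with 3 of 8 libraries below all WT libraries, and a log2 fold change of -0.09 (± 0.08 SE, BH-adjusted p = 0.977). Sox3 differed by 0.10 (± 0.30 SE) and Sox21 by -0.07 (± 0.26 SE). No gene was called (0% by edgeR, with 678 at an unadjusted p under 0.05 and 0 by DESeq2).

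H3.3K27L ESCs stood apart in Sox2 and Sox21. Sox2 stood at 408 to 536 CPM (median 515), and 7 of the 8 libraries lay above all 8 WT libraries, the exception being the library of 68378 counts, which held 28 Sox2 counts. The log2 fold change was 0.30 (± 0.08 SE, BH-adjusted p = 0.0272), below the 2-fold limit, and the adjusted p ran from 0.00936 to 0.181 over other settings and from 0.0119 to 0.259 with 1 library left out. H3.3K27M lay lower than H3.3K27L in Sox2 by a log2 fold change of -0.29 (± 0.08 SE, BH-adjusted p = 0.0284). Sox21 stood at 0 to 9.74 CPM (median 5.46) against 1.93 to 4.29 CPM (median 2.61) in WT, with 5 of 8 libraries above all WT libraries. Its log2 fold change was 1.14 (± 0.25 SE, BH-adjusted p = 0.00594), which was called, where 3.43% of all genes were. Without the H3.3K27L library at 8 h, replicate 1, the value was 0.872, without that at 24 h it was 0.942, and without that at 72 h it was -0.989, since only the shallow library, with no Sox21 count, then remained at that time. Against H3.3K27M, Sox21 was higher in H3.3K27L (H3.3K27M minus H3.3K27L -1.55 on the log2 scale, ± 0.27 SE, BH-adjusted p = 0.00063), among 3.78% of genes called, and without the H3.3K27L library at 72 h, replicate 1, the difference was 0.58. At 24 and 72 h alone Sox21 was not called against WT (1.31, ± 0.38 SE, BH-adjusted p = 0.131, and -2.95 without that library), where 0.507% of genes were called. The Sox3 ranges overlapped (-0.08, ± 0.31 SE, BH-adjusted p = 0.912).

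**Figure D4:**
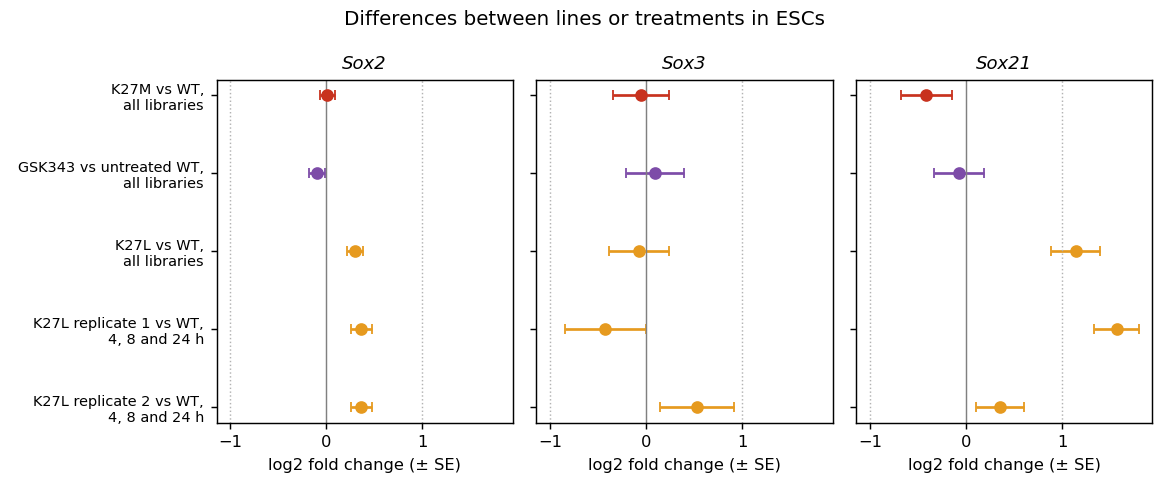
Fitted log2 fold change of Sox2, Sox3 and Sox21 in ESCs against untreated WT (points) with 1 SE on either side (bars). H3.3K27M, GSK343 and H3.3K27L are shown over all Dox times, and each H3.3K27L replicate alone over 4, 8 and 24 h. The Sox21 values of H3.3K27L lie at 1.14 with all libraries, 1.56 in replicate 1 and 0.35 in replicate 2. Those of Sox2 lie at 0.01 for H3.3K27M and -0.09 for GSK343.

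The Sox21 difference was unequal between the 2 H3.3K27L replicates. Replicate 1 stood at 8.497, 9.74, 8.81 and 5.71 CPM at 4, 8, 24 and 72 h, and replicate 2 stood at 5.20, 3.13, 3.64 and 0 CPM. Replicate 1 was higher at 4 of 4 times. Over 4, 8 and 24 h, replicate 1 exceeded WT by a log2 fold change of 1.56 (± 0.23 SE, BH-adjusted p = 0.000385, with 5.48% of genes called), and replicate 2 exceeded WT by 0.35 (± 0.25 SE, BH-adjusted p = 0.478, with 4.82% called). The difference between the replicates was 1.21 (± 0.28 SE, BH-adjusted p = 0.00948, with 6.06% called). Sox2 was alike in both replicates, at 0.37 above WT in each (± 0.11 SE, BH-adjusted p = 0.0367 and 0.0464). Sox3 was -0.42 (± 0.42 SE) in replicate 1 and 0.53 (± 0.39 SE) in replicate 2, and its difference between them did not pass the test (-0.95, ± 0.47 SE, BH-adjusted p = 0.172).

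Chromosome 14, which holds Sox21, moved with this split. Over 311 of its genes in ESCs and 342 after RA, the median log2 level relative to WT of the same Dox time was 0.56 to 0.59 in the 4 H3.3K27L ESC libraries of replicate 1 (1.48 to 1.51-fold) and 0.53 and 0.57 in the 2 H3.3K27L libraries after RA (1.45 to 1.48-fold). It was -0.04 to 0.01 in replicate 2 at 4, 8 and 24 h, 0.17 in the shallow library, and within 0.03 of 0 in the other lines. Within ESCs and within RA-treated cells, the libraries with the chromosome 14 shift of over 0.5 were those with the highest Sox21, whereas OPCs had the highest levels of all with shifts of -0.03 to 0.01. Sox21 itself exceeded WT by 1.04 to 1.68 on the log2 scale in replicate 1, and by 0.48 to 1.10 once the chromosome 14 shift of the library was taken off. In replicate 2 at 4, 8 and 24 h the excess was 0.07 to 0.51, and 0.10 to 0.52 without the shift. After RA it was 1.43 to 1.81, and 0.86 to 1.28 without the shift. With the shift as an offset in the fit, Sox21 in H3.3K27L ESCs was 0.73 above WT (± 0.21 SE, BH-adjusted p = 0.0319), which is below the 2-fold limit, and H3.3K27M against H3.3K27L was -1.14 (± 0.22 SE, BH-adjusted p = 0.00171). After RA the H3.3K27L value against WT, given with no test, became 1.14. The part of the copy number of chromosome 14 in these values was not tested.

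**Figure D5:**
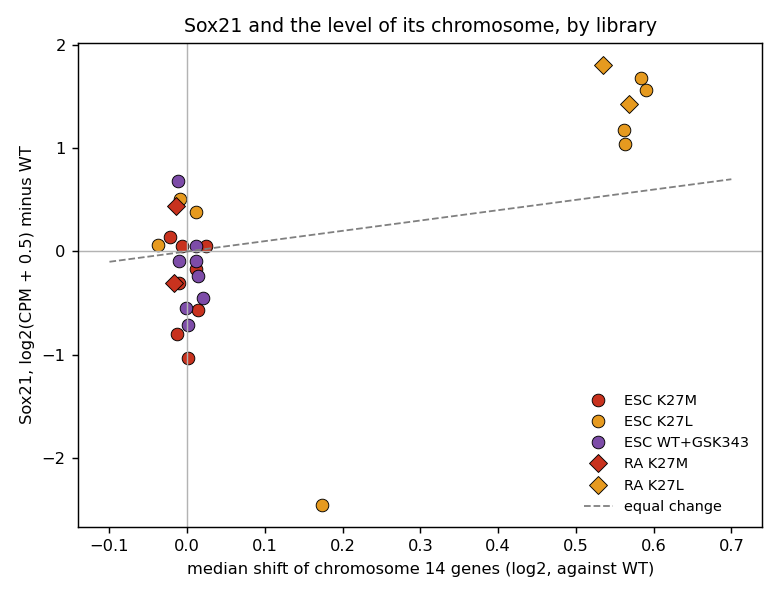
Sox21 difference from WT of the same Dox time (log2) against the median chromosome 14 difference from WT (log2), 1 point per library. The replicate 1 libraries of H3.3K27L ESCs and the H3.3K27L libraries after RA lie together at a chromosome 14 shift of 0.53 to 0.59 and a Sox21 difference of 1.04 to 1.81. The shallow H3.3K27L ESC library lies at a shift of 0.17 and a Sox21 difference of -2.46. All other libraries lie near a shift of 0.

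No member was called for Dox time in ESCs. As the mean over the 4 lines or treatments, 24 and 72 h against 4 and 8 h gave 0.09 for Sox2 (± 0.06 SE, BH-adjusted p = 0.319), -0.41 for Sox3 (± 0.22 SE, BH-adjusted p = 0.198) and -0.59 for Sox21 (± 0.19 SE, BH-adjusted p = 0.0358), the last below the 2-fold limit, with 1.29% of genes called. The adjusted p of Sox21 ran from 0.0129 to 0.226 with 1 library left out. Without the H3.3K27L library at 72 h, replicate 1, which leaves only the shallow library there, the values were -1.66 for Sox21 and -1.32 for Sox3. Whether the effect of a line differed between late and early times was tested as an interaction, and none passed for any member (unadjusted p from 0.106 to 0.908). Sox3 varied by replicate: replicate 1 lay above replicate 2 at 4 of 4 times in WT, in H3.3K27M and in GSK343-treated cells, but at 1 of 4 times in H3.3K27L. That time was 72 h, where replicate 2 was the shallow library, with no Sox3 count. Replicate differences in H3.3K27L also ran opposite to those in WT over 8497 genes at 4, 8 and 24 h (r = -0.60, -0.71 and -0.68), so this was not particular to Sox3. Over the 30 ESC libraries above 2000000 counts, levels on the log2 scale were correlated by r = -0.39 for Sox2 and Sox3, 0.23 for Sox2 and Sox21 and 0.22 for Sox3 and Sox21, as a description over libraries that share lines, times and replicates.

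Among other Sox genes and the factors that work with SOX2 (8 and 12 tested), none was called in ESCs for H3.3K27M or H3.3K27L against WT. Of all genes, 0.0143% were called for H3.3K27M and 3.43% for H3.3K27L over all Dox times, so calls in lists of this size would be few. In WT RA-treated cells against ESCs, where 42.4% of all genes were called and their median was 0.02, 8 of 13 tested other Sox genes were called higher and 1 lower (median log2 fold change 3.53), with the neural crest and glial factor Sox9 at 8.81 (± 0.39 SE), Sox11 at 3.53 (± 0.30 SE), the endoderm factor Sox17 at 6.96 (± 0.41 SE) and Sox15 at -4.42 (± 0.73 SE). All 6 tested targets of OCT4 and SOX2 were called lower (median -6.85), Fgf4 by -10.64 and Utf1 by -4.27 among them. Of 13 tested partner factors, 3 were called higher, namely Pou3f4 (4.77, SE 0.70), Pax6 (3.04, SE 0.55) and the chromatin remodeller Chd7 (1.31, SE 0.26), and 6 lower, including Pou5f1 (-8.63, SE 0.68) and Nanog (-9.95, SE 0.55). In WT OPCs against ESCs, 9 of 13 other Sox genes were called higher and 3 lower (median 4.19), where 66.6% of all genes were called, and again all 6 targets were called lower (median -13.10). Between 72 and 24 h after RA, where Sox3 rose, 3 of 9 other Sox genes were called higher, Sox4 (1.15, SE 0.15), Sox11 (1.45, SE 0.13) and Sox9 (1.49, SE 0.19), and 1 was called lower, against 42.1% of all genes called in either direction.

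The genes most like each member across libraries were taken by Pearson's r of log2(CPM + 0.5), as a description with no test. Over all 42 libraries and 12731 genes these were Jam2 (0.970), Pipox (0.970) and Fam81a (0.958) for Sox2. For Sox3 they were Spata24, Tmem121 and Slc25a11 (0.952 each), and for Sox21 they were Emp2 (0.942), Cd81 (0.922) and Chpf (0.921). These values rest largely on the 3 cell states. Within the 32 ESC libraries and 11899 genes they were Col18a1 (0.883), Armcx1 (0.864) and Mcm10 (0.845) for Sox2, Pgp (0.862), Atp5g1 (0.861) and Decr2 (0.859) for Sox3, and Tbx20 (0.903), Bach2 (0.896) and Vdac2 (0.875) for Sox21. Without the 2 shallow libraries Col18a1 and Tbx20 stayed first (Tbx20 at 0.875), and none of the Sox3 names was kept.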

How the data were processed

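RNA was sequenced with a 3′ (QuantSeq) or a KAPA kit, which of them per library is not given in the sources used here. The authors aligned reads with STAR 2.7.1 to mm9, allowing up to 10 mismatches, and deposited whole-number counts per gene. The counter, its annotation and its strand setting are not given in the sources used here. Of the 55471 genes, 32589 were matched to the mm9 annotation by Ensembl identifier, and these held 98.2% of counts. Genes of chromosome 8 (5.85% of counts) were left out of the main fits and of the totals used for scaling, but not of the marker sums.

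Counts were tested with edgeR 4.0.16 (R 4.3.3; TMM, filterByExpr, quasi-likelihood F test) with Benjamini-Hochberg adjustment over all genes tested, 1 model for the 32 ESC libraries, 1 for RA, 1 for OPCs and 1 for all 42. Calls needed an adjusted p below 0.05 and a fold above 2, up or down. SE is the size of the log2 fold change over the square root of F. DESeq2 1.42.0, other size factors, no filter, chromosome 8 kept, fewer libraries in the model, a replicate block and leaving out each library were alternatives. The scripts were tested on simulated data with known fold changes. Python 3.11.15 made summaries and plots.

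The members and lists were chosen with earlier results of these data known. Genes named beside the members are the 3 most correlated with each. Markers and Sox lists are given as counts, with examples. Within ESCs, p-values measure the spread between experiments on the same line at the same Dox time. The model counted the 4 Dox times of a replicate as independent. All 4 H3.3K27L libraries of replicate 1 shared the chromosome 14 shift, so p-values that average over times may be too small. Between lines after RA or in OPCs, without a block, they measure the spread between the 24 and 72 h libraries. Comparisons between cell states came from the model of all 42 libraries, most of them from ESCs. Their p-values therefore rest largely on the spread among ESC libraries, and less on that between the 24 and 72 h libraries. The common dispersion of that model was 0.0836. Whether replicate numbers pair the ESC samples was checked by the correlation of deviations from group means over 8497 genes. It was 0.608 to 0.714 between WT and H3.3K27M, and -0.707 to 0.261 between WT and H3.3K27L. After RA, where the shared number is the Dox time, it was 0.933 to 0.959 over 9099 genes, so Dox time pairs the lines there. The RA fits nevertheless pooled the 2 Dox times as replicates, without a block, as the study did, and the common dispersion was 0.457 without the block and 0.0177 with it. No 2 libraries agreed within sampling noise. Promoter sequence was read from the NCBIM37 genome.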

Additional observations from a re-analysis of the deposited data

Results flagged for a closer look

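Sox2 in the H3.3K27L ESC library at 72 h, replicate 2, stood apart from the other 7 libraries of the line. Its level was 408 CPM, the nearest other library stood at 498 CPM and the highest at 536 CPM, so the gap was 0.699 of the range, above the 95% critical value of Dixon for 8 values. This library held 68378 counts, of which 28 were from Sox2, and the part of its depth in the low value was not tested. It was the only such value in 12 groups examined, and chance gives about 1 in 20.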

How the results depend on the processing

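Direction and side of the threshold were kept by 379 of 401 member values under another setting and by 522 of 600 with 1 library left out, and 32 of 57 member results kept them throughout. Low counts of Sox3 and Sox21 and the 2 shallow libraries limited the ESC results, and where a value moved, the cause was not tested. Values below are log2 fold changes. Against WT in ESCs, Sox2 in H3.3K27M was -0.0136 without a filter over all times, and at 24 and 72 h it was -0.0133 by DESeq2, -0.0133 with relative log expression scaling and -0.0240 without a filter. In H3.3K27L against WT, Sox3 was 0.53 in replicate 2 alone, and Sox21 was 0.73 with the chromosome 14 offset, 0.35 in replicate 2 alone and, at 24 and 72 h without a filter, 1.29. Sox21 with GSK343 was 0.0151 without the shallow libraries. After RA, Sox21 in H3.3K27L against WT was 1.14 with the offset, and in H3.3K27M against H3.3K27L it was -1.71 with the replicate block. In RA-treated cells against ESCs, Sox3 in WT was 1.78 by DESeq2, 1.63 with relative log expression scaling and 1.22 without a filter, Sox21 in WT was 0.942 without a filter, 0.958 with chromosome 8 and 0.944 without the shallow libraries, and Sox3 in H3.3K27L was 1.44 with only 24 and 72 h and the block. In WT OPCs against ESCs, Sox2 was -1.01 with chromosome 8, -1.01 with only the libraries compared, -1.05 without the shallow libraries and -1.06 with only 24 and 72 h and the block. The chromosome 14 offset, the split of replicates, the crossed numbers and the fits without shallow libraries were chosen after seeing the data.

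With 1 library left out, values in ESCs over all times ranged from -0.025 to 0.055 for Sox2 and -0.310 to 0.179 for Sox3 (H3.3K27M against WT), -1.89 to 0.150 for Sox3 and -0.989 to 1.29 for Sox21 (H3.3K27L against WT), -0.152 to 0.322 for Sox3 and -0.380 to 0.027 for Sox21 (GSK343), and -0.230 to 1.84 for Sox3 and -1.70 to 0.580 for Sox21 (H3.3K27M against H3.3K27L). Late against early times gave -1.32 to -0.301 for Sox3 and -1.66 to -0.434 for Sox21. At 24 and 72 h they ranged from -0.070 to 0.086 for Sox2 and -0.874 to 0.100 for Sox3 (H3.3K27M), -3.81 to 0.270 for Sox3 and -2.95 to 1.57 for Sox21 (H3.3K27L), and -0.084 to 0.076 for Sox2 and -0.735 to 0.060 for Sox3 (GSK343). The lone sample left in a group was then assumed to vary like the others. After RA, Sox3 ranged from -1.81 to 3.295 (H3.3K27M against WT), -1.37 to 2.80 (H3.3K27L against WT) and -2.08 to 2.14 (H3.3K27M against H3.3K27L). Against ESCs, RA-treated cells gave -0.907 to 2.25 (WT), -0.159 to 2.95 (H3.3K27M) and 0.0953 to 2.22 (H3.3K27L) for Sox3, and 0.815 to 1.10 (WT) and 1.05 to 1.54 (H3.3K27M) for Sox21. Sox2 in WT OPCs ranged from -1.06 to -0.907.

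The replicate block changed no member call in ESCs. Genes called for H3.3K27M against WT numbered 2, and 23 with the replicate block, 13 with crossed numbers, 9 by DESeq2, 152 without a filter, and 0 with only the libraries compared or without the shallow libraries. At 24 and 72 h they numbered 0, and 46 without a filter, 2 with the block and 2 with crossed numbers. For H3.3K27L against WT 481 became 750 without a filter, and 71 at 24 and 72 h became 310 without a filter, 150 with the block and 230 with crossed numbers. GSK343 gave 0, and 26 without a filter. H3.3K27M against H3.3K27L gave 530, and 319 with only the libraries compared, and late against early times gave 181, 106 by DESeq2 and 368 without a filter. After RA, the block of Dox time gave 2 genes for H3.3K27M against WT, 445 for H3.3K27L against WT and 822 between the mutants, where DESeq2 gave 0, 5 and 18, and no filter gave 7 and 6 in the last 2. OPCs against RA gave 7680, and 4667 with only the libraries compared. Relative log expression scaling moved the median of all genes by 0.167 to 0.254 in the comparisons of RA-treated cells or OPCs with ESCs, and all Sox2, Sox3 and Sox21 directions there held under it.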
